A study of Mus musculus with 2 samples.

Results

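Simple repeats, also called microsatellites, are tracts in which a short unit of bases is copied head to tail. Of the 8226 deposited Dnmt1 peaks of cleavage-stage mouse embryos, 204 (2.48%) name a simple repeat, and these 204 are described here. They were taken by annotation alone, as every peak whose repeat field includes the simple repeat class, whatever its height. The main comparison set was the 4976 peaks at which no repeat is named. Peaks that name a SINE (1360), an LTR element (879) or a LINE (659) but no simple repeat served as further comparison sets, and a peak can belong to more than 1 of these.

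The study compared 2 libraries of genomic DNA. The Dnmt1-Dam library came from 50 embryos injected with a Dnmt1-V5-Dam construct, and the Dam-only library from 50 embryos injected with Dam alone. Both groups were BCF1 (C57BL/6 x CBA/CA) embryos collected at the 4- to 8-cell stage, from superovulated females of 5 weeks. The labels name no deletion of the embryos' own Dnmt1, and each library is a pool of embryos. With 1 library per group there is no replicate spread, so no p-value between the groups was computed. Peaks are positions within those libraries and are not replicates of a condition. Intervals below are 95% intervals that cover counting error only.

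DamID works through the bacterial enzyme Dam, which methylates the adenine of GATC sequences near the place where its fusion partner sits. Dnmt1 copies CpG methylation to the new strand after replication, and in the cleavage embryo most of the parental methylation is lost while imprints and some retroelements keep it. Simple repeat tracts gain and lose units when the polymerase slips during replication, and tracts of units such as CA hold neither GATC nor CpG. Short reads from within such a tract are hard to place on the genome. The treatment of multiply mapped reads is not given in the sources used here. Each row gives a peak as a position without a width and names the repeat class but not the repeated unit, so the tracts themselves are not printed.

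Sequence could be set beside promoter peaks only. Of the 10 simple repeat peaks in proximal promoters, 7 had a RefSeq promoter (assembly GRCm38.p6, from 250 bases before to 50 after the start site). Measured from the start site in the deposited table, none of these 7 peaks lay in that range. The RefSeq start site may be another one, since the gene length agreed between the sources only for Olfr140 (909 bp) and differed for the other 6. Of the 7, the Olfr140 peak, at an olfactory receptor gene, was also the nearest, 62 bp upstream of the range. The Tmem33 window is shown with it because it was the only 1 of the 7 with a tract of at least 12 bases made of 4 or more copies of a unit of up to 6 bases. Capitals mark such a tract and any GATC. GATC reads the same on both strands.
Olfr140 promoter, chr2:90052273-90052572, minus strand: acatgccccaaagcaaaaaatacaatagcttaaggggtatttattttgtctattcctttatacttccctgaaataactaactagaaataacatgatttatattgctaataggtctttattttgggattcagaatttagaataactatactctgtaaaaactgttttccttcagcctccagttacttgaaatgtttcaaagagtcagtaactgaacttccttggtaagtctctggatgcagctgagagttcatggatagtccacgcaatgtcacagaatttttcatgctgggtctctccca
Tmem33 promoter, chr5:67260315-67260614, plus strand: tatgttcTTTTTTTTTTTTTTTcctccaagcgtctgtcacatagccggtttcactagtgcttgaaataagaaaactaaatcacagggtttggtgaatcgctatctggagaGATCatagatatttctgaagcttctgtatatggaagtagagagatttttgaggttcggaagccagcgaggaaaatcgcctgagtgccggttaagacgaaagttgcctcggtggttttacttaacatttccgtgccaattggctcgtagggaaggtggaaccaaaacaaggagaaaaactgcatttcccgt

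GATC occurred in 5 of the 7 windows, beside 48.0% of all 32851 promoter windows. A tract of that kind occurred in 1 of the 7, a run of 15 T in Tmem33, beside 11.5% of all windows. The Tmem33 peak itself lay 2260 bp upstream of the start site used in the deposited table. These matches describe the printed letters and not the peaks.

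Most simple repeat peaks were low. The deposited Dnmt1-Dam height, a whole number whose scaling is not stated, had a median of 8 at these peaks (interquartile range 7 to 10, range 7 to 29, n = 204). At repeat-free peaks the median was 9 (7 to 11, range 7 to 66, n = 4976). Of the 204 peaks, 65 (31.9%) stood at 7, the smallest height listed, as did 27.2% of repeat-free peaks. Heights of 9 or more were found at 47.5% of simple repeat peaks (40.5 to 54.6) and at 53.4% of repeat-free peaks (52.0 to 54.8), a difference of -5.89 percentage points whose Newcombe interval contained 0 (-12.8 to 1.09). Heights of 15 or more were found at 10 simple repeat peaks, or 4.90% (2.38 to 8.83), and at 8.74% of repeat-free peaks (7.97 to 9.56). That difference of -3.84 points had an interval of -6.20 to 0.12. The same differences contained 0 against LTR peaks (-3.53 points for height 9 or more and -2.61 for height 15 or more) and against LINE peaks (-4.50 and -2.84 points). Against SINE peaks both excluded 0, at -8.11 points for height 9 or more (-15.3 to -0.78) and -5.69 points for height 15 or more (-8.51 to -1.51).

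The Dam-only signal, which marks DNA open to Dam by itself, was low at more of the simple repeat peaks. Its height was 1, the smallest value listed, at 169 of the 204. It was 2 or more at 17.2% of simple repeat peaks (12.3 to 23.0) and at 24.2% of repeat-free peaks (23.0 to 25.4), a difference of -7.02 points (-11.7 to -1.13). On 16 of the 20 chromosomes with a simple repeat peak the share was lower among simple repeat peaks, and on 4 it was higher. These counts split the same peaks, with 4 to 18 simple repeat peaks per chromosome, and are no separate support. On chromosome 5 the share was 53.8% of 13 simple repeat peaks, against 19.6% of repeat-free peaks. A Dam-only height of 4 or more was found at 5 simple repeat peaks (2.45%) and 5.77% of repeat-free peaks. At every listed peak Dnmt1-Dam exceeded Dam-only by at least 6 and was at least 2 times as high. These limits were read from the listed heights, since the filter itself is not given in the sources used here. Under them, a peak with a higher Dam-only height must also be taller to be listed. The difference in Dam-only height no longer excluded 0 against LTR or LINE peaks (-6.28 and -6.36 points), for the 135 peaks where simple repeat is the sole class named (-6.40 points) or among peaks of height 9 or more (-7.94 points), and among those of height 15 or more it had the other sign (5.63 points).

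**Figure D1:**
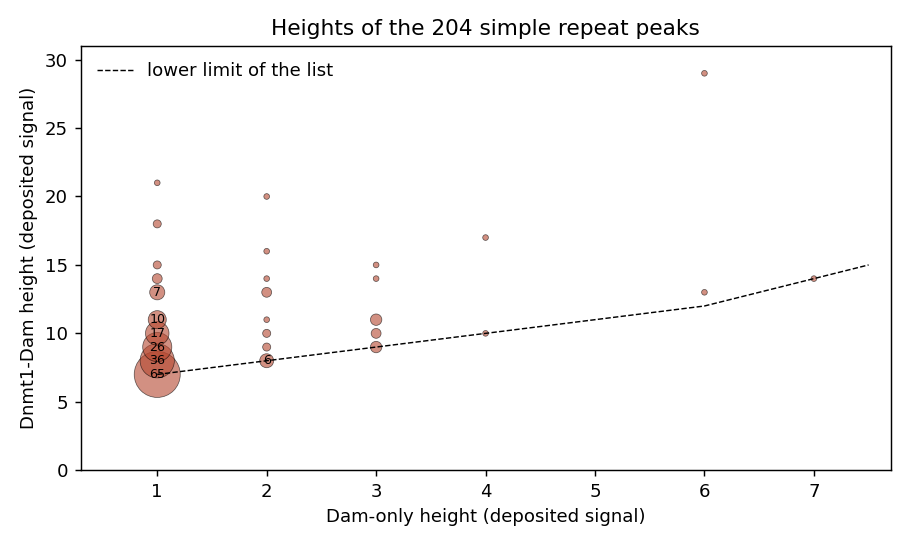
Dnmt1-Dam height (vertical axis) against Dam-only height (horizontal axis) at the 204 simple repeat peaks, both in deposited signal units; the area of a circle follows the number of peaks, printed where it is 5 or more. The largest circle holds 65 peaks at 7 against 1, on the dashed line, which is the lower limit read from the listed heights. Only the Zfhx3 peak exceeds 21.

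The ratio of the 2 heights did not set simple repeat peaks apart. Its median was 8 at simple repeat peaks (interquartile range 7 to 9) and 7.5 at repeat-free peaks (7 to 9), and the median log2 ratio with a pseudocount of 1 was 2.17 in each. A ratio of at least 10 was reached by 43 of the 204 simple repeat peaks (21.1%), close to the 23.4% of all listed peaks that reached it. The difference from repeat-free peaks was -2.72 points (-7.89 to 3.50). At a Dam-only height of 1, found at 169 simple repeat peaks and 75.8% of repeat-free peaks, the ratio is the Dnmt1-Dam height itself. Among those peaks, 24.9% of simple repeat and 30.6% of repeat-free peaks reached a ratio of 10 (-5.73 points, -11.8 to 1.44).

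The tallest simple repeat peak lay inside Zfhx3, a homeobox and zinc finger transcription factor gene. Its Dnmt1-Dam height was 29 and its Dam-only height 6, at position 111382541 of chromosome 8 (mm9, as all peak positions here), 144 kb downstream of the start site. The Dam-only height of 6 is matched or exceeded at only 2 other simple repeat peaks. Next came the proximal promoter of Pla1a, which encodes a phosphatidylserine-specific phospholipase. There the heights were 21 for Dnmt1-Dam and 1 for Dam-only, 796 bp upstream of the start site on chromosome 16 (38434021), at a peak that also names a SINE. A peak of 20 against 2 (here and below, the Dnmt1-Dam height against the Dam-only height) on chromosome 5 (118195161) lay in the body of a transcript for which the table gives no gene name.

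Heights of 18 were reached at a further pair of peaks, both inside genes and both against a Dam-only height of 1. The first was in Armc4, a gene of motile cilia, 30.8 kb from the start site on chromosome 18 (7267141). The other was in Camta1, which encodes a calmodulin-binding transcription activator, 146 kb from the start site on chromosome 4 (151090201). The Nav3 peak, of 17 for Dnmt1-Dam and 4 for Dam-only, was the tallest intergenic one and lay 363 kb upstream of this neuron navigator gene (chromosome 10, 109800081). Inside Ctnna3, an alpha-catenin gene of cell junctions, the heights were 16 against 2 (chromosome 10, 63157741).

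Heights of 15 were found at 3 peaks. The one assigned to Rufy4, a RUN and FYVE domain gene, read 15 against 1, 122 kb upstream of the gene. The one in Ccdc151, named C330001K17Rik in the table and needed for the dynein arms of cilia, read 15 against 1 in the shelf of a CpG island. The one in Ccdc40, which is needed to assemble the ciliary axoneme, read 15 against 3 and also names a SINE. Of the 10 peaks at 15 or more, 7 were in gene bodies, 2 intergenic and 1 in a proximal promoter.

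A height of 14 was listed at 6 peaks, with Dam-only heights between 1 and 7. At Fbxo28, an F-box protein gene, Pdss2, a coenzyme Q synthesis gene, and Kif2b, a mitotic kinesin gene, the Dam-only height was 1. At Cnga1, the channel gene of rod photoreceptors, it was 2, and at Tsc22d2 it was 3. At Nup160, a nuclear pore gene whose peak lay 16.6 kb upstream, it was 7, the highest of all 204 and a ratio of 2. A height of 13 was listed at 11 peaks, so a list of the 20 tallest ends within a tie. The 4 that complete it by lower Dam-only height, chromosome and position each read 13 against 1 and were assigned to 4931408C20Rik, Dnah5 (Dnahc5 in the table, an axonemal dynein gene), Boc, a hedgehog co-receptor gene, and Reep5, a gene of endoplasmic reticulum shape. An assigned gene can be far from its peak: that of Dnah5 lay 687 kb past the end of the gene and that of Kif2b 261 kb past the end. The 5 peaks with the highest Dam-only heights included, besides Nup160, Zfhx3 and Nav3, a peak of 13 against 6 in an unnamed transcript on chromosome 4 (154828841). The fifth was a peak of 10 against 4 lying 149 kb upstream of Prmt6, an arginine methyltransferase gene.

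By location, simple repeat peaks were in gene bodies less often than repeat-free peaks. Gene bodies held 71 of them (34.8%, 28.3 to 41.8), against 46.5% of repeat-free peaks (45.1 to 47.9), a difference of -11.7 points (-18.1 to -4.80). Intergenic DNA held 113 (55.4%, 48.3 to 62.3), against 47.3% of repeat-free peaks (45.9 to 48.7), a difference of 8.09 points (1.09 to 14.9). The gene body share was the lower one among simple repeat peaks on 15 of 20 chromosomes and the higher one on 5, a split of the same peaks and no separate support. Outside promoters, the deposited gene body and intergenic classes followed whether a peak lay inside the assigned gene. The promoter classes followed the distance to the start site of that gene at every peak. Proximal promoters reached 3 kb upstream and 1 kb downstream of the start site, and distal promoters on to 10 kb upstream. Both classes held 10 simple repeat peaks each, or 4.90% (2.38 to 8.83), and for distal and for proximal promoters neither share differed from that of repeat-free peaks beyond counting error (1.47 points, -0.82 to 5.38, and 2.15 points, -0.12 to 6.06). The 2 promoter classes together, a grouping chosen after their values were seen, held 9.80% of simple repeat peaks and 6.19% of repeat-free peaks (3.61 points, 0.17 to 8.51).

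The location differences were recomputed on taller peaks. Among peaks of height 9 or more the gene body difference was -7.10 points (-16.5 to 3.02) and the intergenic difference 4.45 points (-5.52 to 14.4), and both intervals contained 0. So did the intergenic interval for peaks naming a simple repeat alone (6.03 points) and against all other listed peaks (4.69 points). Among the 10 simple repeat peaks of height 15 or more, 7 were in gene bodies (70.0%, against 46.4% of repeat-free peaks of that height), a difference of 23.6 points in the other direction with an interval of -7.12 to 43.3. Whether the difference varies with height was not tested. The share of the mouse genome that simple repeats take in genes and between them was not analysed here, and the shares are therefore no measure of enrichment.

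In gene body and intergenic shares, simple repeat peaks lay between SINE peaks on the one side and LTR and LINE peaks on the other. The gene body share was 34.8% for simple repeats, 46.1% for SINEs, 27.5% for LTR elements and 27.9% for LINEs. The difference excluded 0 from SINE peaks (-11.3 points, -18.0 to -4.04) and from LTR peaks (7.27 points, 0.36 to 14.6), and did not from LINE peaks (6.88 points, -0.26 to 14.4). The intergenic difference excluded 0 from all 3, at 10.9 points from SINE peaks (3.55 to 18.1), -10.5 from LTR peaks (-18.0 to -3.09) and -11.2 from LINE peaks (-18.9 to -3.61). For proximal promoters the simple repeat share was instead the highest, at 4.90%, against 2.79% for SINEs, 2.28% for LTR elements and 1.82% for LINEs. That difference excluded 0 from LTR peaks (0.10 to 6.59) and LINE peaks (0.49 to 7.04), and did not from SINE peaks (-0.33 to 6.06). The comparisons with these 3 classes were added after the data were seen.

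**Figure D2:**
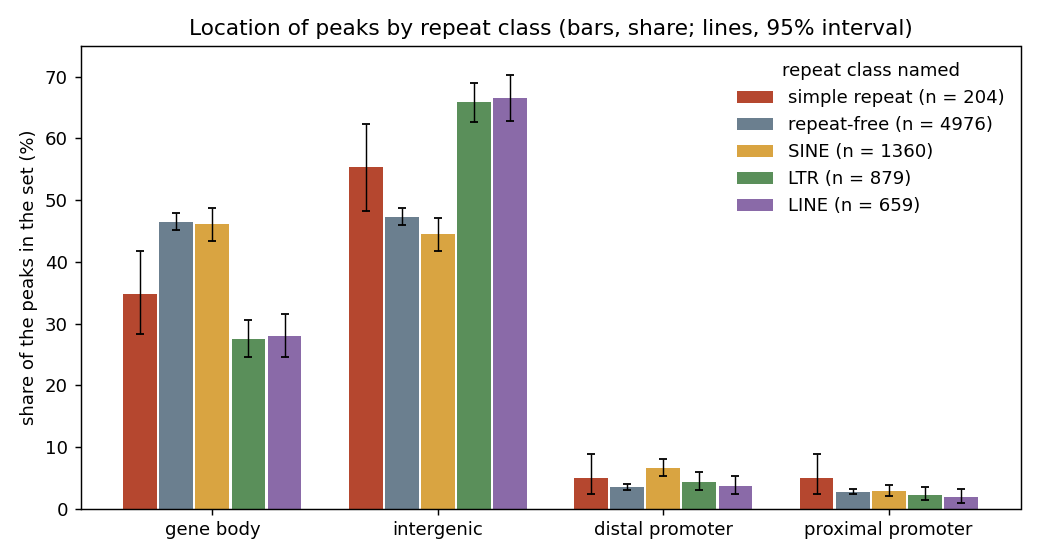
Share of peaks (vertical axis, percent of the set) in each location class for simple repeat peaks and the 4 comparison sets; bars are shares and lines 95% Clopper-Pearson intervals. In gene bodies the simple repeat bar (34.8%) lies below the repeat-free and SINE bars and above the LTR and LINE bars.

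Close to genes, 36 simple repeat peaks (17.6%, 12.7 to 23.6) were within 10 kb of the start site used in the table, against 14.3% of repeat-free peaks (3.36 points, -1.37 to 9.25). More than 100 kb from it lay 39.7% of simple repeat peaks and 39.6% of repeat-free peaks (0.14 points, -6.47 to 7.11). Median distances were 63.4 kb for simple repeat peaks and 63.3 kb for repeat-free peaks. Measured instead to the nearer edge of the gene, 48.0% of simple repeat peaks were inside the gene or within 10 kb of it, against 56.0% of repeat-free peaks (-7.93 points, -14.8 to -0.96). That second measure counts every gene body peak as inside. Distances to the start site were also compared with the retroelement classes, after the data were seen. Over 100 kb the difference was 14.0 points from SINE peaks (7.15 to 21.2) and -9.61 from LINE peaks (-17.1 to -1.78). It contained 0 from LTR peaks (-3.07). Within 10 kb it was 7.18 from LTR peaks (2.06 to 13.3) and 7.33 from LINE peaks (2.05 to 13.5). From SINE peaks it contained 0 (-3.75). Between 10 and 100 kb only the SINE difference excluded 0 (-10.3, -17.4 to -2.94).

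Inside genes, simple repeat peaks lay nearer the start than repeat-free peaks did. Of the 71 in gene bodies, 42 (59.2%, 46.8 to 70.7) were nearer to the start site than to the other end of the gene. Among repeat-free gene body peaks 43.7% were, a difference of 15.4 points (3.63 to 26.3). Their median position was 41.5% of the way along the gene, against 56.2% for repeat-free peaks. Against SINE peaks in gene bodies, of which 51.5% were nearer the start, the difference contained 0 (7.64 points, -4.61 to 19.01). This measure was added after the data were seen. The genes that hold these peaks had a median length of 154 kb, against 113 kb for repeat-free gene body peaks. Whether a peak is in an exon or an intron was not analysed here.

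Apart from that of Pla1a, the 10 proximal promoter peaks had heights between 7 and 10. The nearest to a start site was at Pnldc1, which encodes an exonuclease that trims piRNAs, at 7 against 1 and 215 bp upstream. Olfr140 followed at 10 against 1 and 312 bp upstream. Psd3, an ARF exchange factor gene, had the only peak downstream of the start, at 8 against 2 and 553 bp. These 3 lie within 1 kb of the start site, as do Dipk2b (4930578C19Rik in the table, X chromosome, 8 against 1, 651 bp upstream) and Pla1a. The other 5 were upstream by 1340 bp at Fyb, an adaptor gene of T cells (8 against 1), 1427 bp at Ldlrad3 (10 against 1), 1813 bp at S100a5, a calcium-binding protein gene (8 against 1), 2260 bp at Tmem33 (7 against 1) and 2973 bp at Lrrc8b, a volume-regulated anion channel gene (7 against 1).

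CpG island context was named at 16 simple repeat peaks (7.84%, 4.55 to 12.4) and at 6.73% of repeat-free peaks (1.11 points, -1.94 to 5.68). Islands held 2 of them, 1 in the body of Acss2, the gene of an enzyme that makes acetyl-CoA from acetate (11 against 3), and 1 in the distal promoter of Atp9a, a gene of the phospholipid-transporting ATPase family (7 against 1). Shores held 8. The tallest was that of Cnga1 (14 against 2), followed by Adamts14, a metalloprotease gene (11 against 1), Itga10, an integrin gene (10 against 1), and Asph, an aspartyl hydroxylase gene (10 against 1). The other 4 shore peaks were assigned to Pttg1ip (9 against 1), Otud7b, Cyth4 (Pscd4 in the table) and Syf2, a splicing factor gene, the last 3 at 7 against 1. Shelves held 6, assigned to Ccdc151 (15 against 1), Yipf3 and Tmem106a (9 against 1 each), and Nnt, Syt10 and Ccdc171 (4930473A06Rik in the table; 7 against 1 each). Against LINE peaks, of which 3.95% had any island context, the difference was 3.90 points (0.45 to 8.58), while it contained 0 against SINE peaks (-0.02 points, -3.37 to 4.68) and LTR peaks (1.81 points, -1.64 to 6.54).

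**Figure D3:**
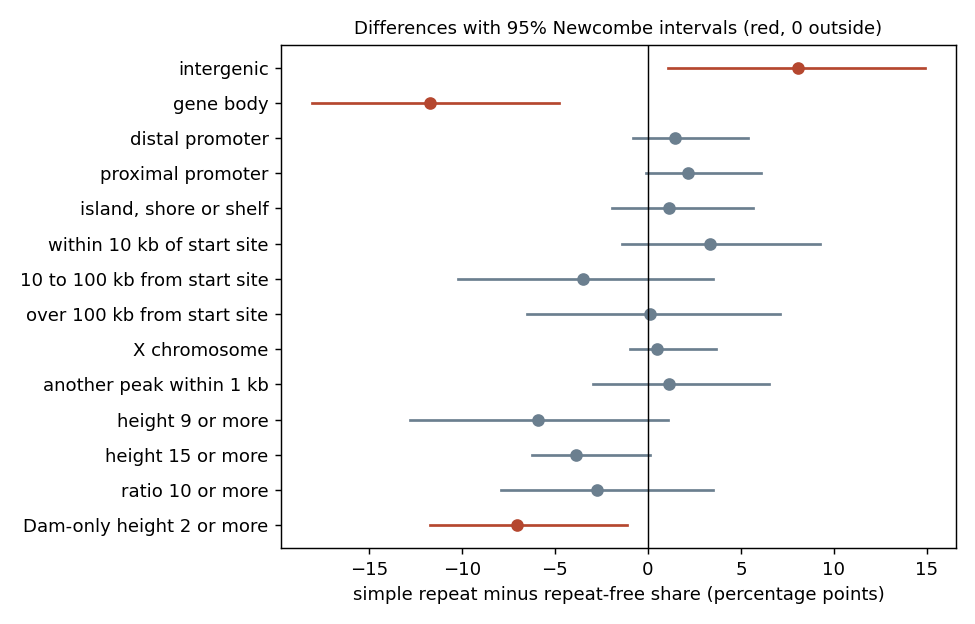
Difference between the share of simple repeat peaks and the share of repeat-free peaks (horizontal axis, percentage points) for 14 measures; points are differences and lines 95% Newcombe intervals. The intervals of 3 measures, intergenic, gene body and Dam-only height of 2 or more, lie clear of 0.

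These 14 differences were computed from the same peaks, and their intervals were not widened for their number. Those of 3 measures excluded 0 and those of 11 contained it.

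A simple repeat was the only class named at 135 of the 204 peaks (66.2%). A SINE was named beside it at 44 (21.6%), a LINE at 14 (6.86%), an LTR element at 8 (3.92%) and a DNA transposon at 4 (1.96%), and a peak can fall under more than 1 of these. At 7 peaks the simple repeat class is named more than once. Peaks naming a simple repeat with a SINE had a median height of 9 (interquartile range 7 to 10.25), and peaks naming a simple repeat alone had a median of 8 (7 to 10). Gene bodies held 34.1% of those with a SINE and 36.3% of those with a simple repeat alone (-2.21 points, -17.0 to 14.4). Of the 10 proximal promoter peaks, 5 also name a SINE and 5 do not. The proximal promoter share was 11.4% where a simple repeat stood with a SINE and 2.79% at SINE peaks without a simple repeat (8.57 points, 2.08 to 21.2). It rests on 5 peaks and was chosen after the values were seen. Against peaks naming a simple repeat alone the difference contained 0 (7.66 points, -0.27 to 20.5). Distal promoters held 0 of the 44 peaks with a SINE and 6.62% of SINE peaks without a simple repeat, so the promoter classes together held 11.4% of peaks naming both and 9.41% of those SINE peaks.

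Heights were also compared by location among the simple repeat peaks. In gene bodies 39 of 71 (54.9%) reached 9, against 49 of 113 (43.4%) in intergenic DNA, a difference of 11.6 points whose interval contained 0 (-3.19 to 25.7). A height of 15 was reached by 7 (9.86%) in gene bodies and 2 (1.77%) in intergenic DNA, a difference of 8.09 points (1.39 to 17.3). Medians were 9 in gene bodies and 8 in intergenic DNA. Within intergenic DNA, the 43.4% at 9 or more compared with 52.0% of repeat-free peaks (-8.68 points, -17.7 to 0.75). The 1.77% at 15 or more, which is 2 peaks, compared with 8.41% of repeat-free peaks (-6.64 points, -8.39 to -2.06), and a Dam-only height of 2 or more was found at 13.3% of simple repeat peaks and 22.1% of repeat-free peaks (-8.82 points, -14.2 to -1.16). Within gene bodies, 9.86% of simple repeat peaks and 8.73% of repeat-free peaks reached 15 (1.13 points, -4.02 to 10.3). A Dam-only height of 2 or more was found there at 22.5% of simple repeat peaks and 26.0% of repeat-free peaks (-3.44 points, -11.8 to 7.68). Whether the differences in the 2 locations differ from each other was not tested.

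Another listed peak stood within 1 kb of 27 simple repeat peaks (13.2%, 8.91 to 18.7) and of 12.1% of repeat-free peaks (1.12 points, -2.97 to 6.53). The spacing at those 27 ranged from 80 to 980 bp with a median of 120 bp, and 22 of them had their neighbor within 200 bp. Split by location after the data were seen, the share was 25.4% in gene bodies (18 of 71), against 11.97% of repeat-free gene body peaks (13.4 points, 4.60 to 24.7), and 7.08% in intergenic DNA, against 12.6% of repeat-free peaks (-5.54 points, -9.26 to 0.86). Among simple repeat peaks the 2 locations differed by 18.3 points (7.57 to 30.0), and among repeat-free peaks by -0.65 points (-2.53 to 1.24). Close neighbors are not independent, and 6 of the 18 gene body peaks are 3 pairs of simple repeat peaks that neighbor each other. With 1 peak kept per close pair of the same set, the gene body share was 22.1% (15 of 68), against 6.94% of repeat-free peaks (15.1 points, 6.83 to 26.4). This thinning was unequal, since only peaks of the same set were dropped while neighbors were still counted from all listed peaks. The repeat-free count fell from 277 of 2314 to 152 of 2189, and the simple repeat count from 18 of 71 to 15 of 68. The larger difference is therefore no separate support.

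At 13 of the 27 the nearest neighbor was a repeat-free peak, and the heights of each pair are set side by side as a description. Fragments were size-selected near 300 bp, so peaks closer than that are not independent signals. Both peaks of a pair also had to reach the smallest listed height of 7. The simple repeat peak was the taller in 6, the shorter in 6 and equal in 1. At Zfhx3 it read 29 against a Dam-only height of 6, while the repeat-free peak 100 bp away read 20 against 1. At Il9, an interleukin gene, the order was the other way, with 7 against 1 at the simple repeat peak and 12 against 1 at the repeat-free peak 170 bp away. Sox5, a transcription factor gene of cartilage and neural development, had 11 against 1 at the simple repeat peak and 9 against 1 at a repeat-free peak 900 bp away.

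**Figure D4:**
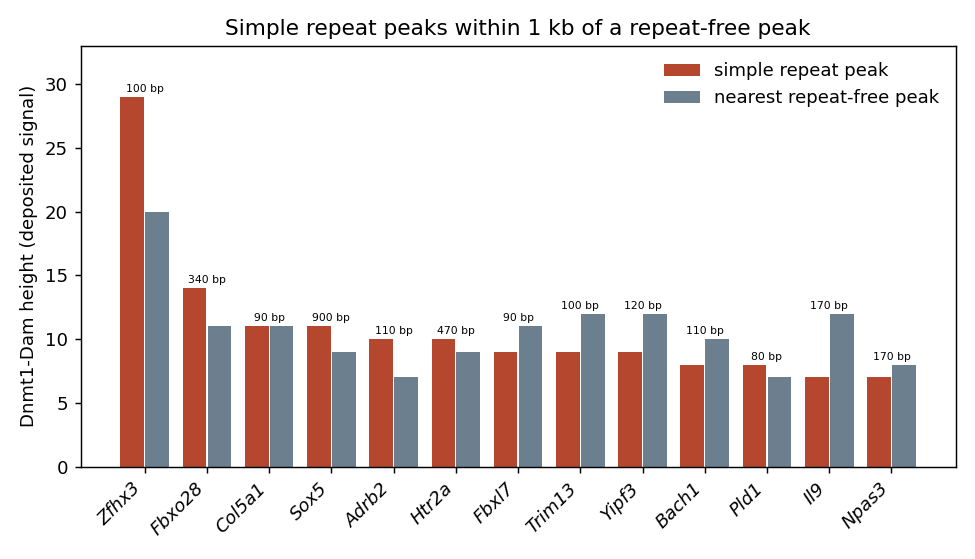
Dnmt1-Dam height (vertical axis, deposited signal) of 13 simple repeat peaks and of the repeat-free peak nearest to each, by assigned gene (horizontal axis), with the spacing printed above. The simple repeat bar is the taller in 6 pairs, the shorter in 6 and equal at Col5a1.

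The 204 peaks were assigned to 196 genes, and 8 genes held 2 each. In 4 of these the 2 peaks were close neighbors. In Camta1 they were 90 bp apart, at 18 against 1 and 9 against 3. In Cdh6, a cadherin gene, they were 90 bp apart, at 10 against 2 and 9 against 1. In Cped1 (A430107O13Rik in the table) they were 120 bp apart, at 11 against 1 and 9 against 1. Near Slc39a11, a zinc transporter gene, they were 140 bp apart, both at 9 against 1. The second Zfhx3 peak, of 7 against 1, lay 361 kb upstream of the gene. The pairs of Epha7, an ephrin receptor gene, and Tenm2 (Odz2 in the table), a teneurin gene, were intergenic and read 8 against 1 at every peak. Those of Xylt1, a xylosyltransferase gene, read 10 against 1 and 9 against 1.

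Each gene list examined held between 0 and 2 genes with a simple repeat peak. Of all 4841 genes with a peak, 196 (4.05%) had one at a simple repeat. Of 33 neuronal adhesion and synapse genes with a peak, 2 did, Tenm2 and Sdk1, a synaptic adhesion gene whose body held a peak of 8 against 2. Of 23 genes with a peak whose human counterparts carry disease-linked repeat expansions, 1 did, Xylt1, and both of its peaks lay outside the gene, 163 kb before its start and 50.8 kb past its end. Of 17 imprinted genes with a peak, 1 did, Htr2a, a serotonin receptor gene, with 10 against 1 at 145 kb upstream. None did of 12 genes of DNA methylation and retroelement silencing, 16 genes of the early lineages or 5 genes of mismatch repair and repeat stability. The 3 shares above 0 were 6.06%, 4.35% and 5.88%, beside 4.05% of all genes, and each rests on 1 or 2 genes. The lists with none are too short to tell their share from 4.05%.

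Simple repeat peaks were found on 20 of the 21 chromosomes with a listed peak, all but the Y. Their share of a chromosome's peaks ran from 1.14% on chromosome 14 (4 of 350; 0.31 to 2.90) to 4.67% on chromosome 19 (10 of 214; 2.26 to 8.43). The interval of each of the 20 contained the overall 2.48%. Chromosome 2 held the most, 18, followed by chromosome 10 with 17. The X chromosome held 5 (2.45% of simple repeat peaks), against 1.97% of repeat-free peaks (0.48 points, -0.98 to 3.66), and the tallest of these 5 reached 8.

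**Figure D5:**
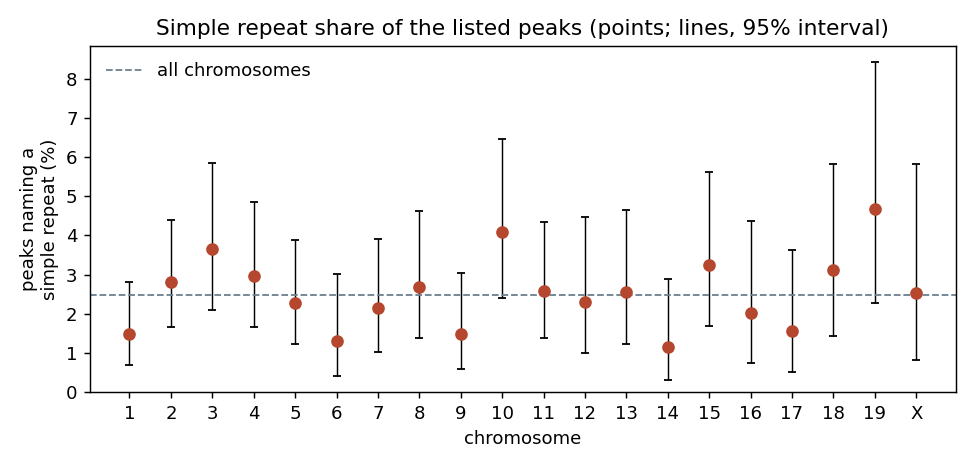
Percent of the listed peaks of each chromosome that name a simple repeat (vertical axis) by chromosome (horizontal axis); points are shares, lines 95% Clopper-Pearson intervals and the dashed line the share over all chromosomes, 2.48%. Every interval contains the dashed line.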

How the data were processed

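Genomic DNA of 2 libraries was end-repaired, ligated to adapters, amplified with 15 PCR cycles and size-selected near 300 bp, per the labels' protocols. CASAVA and BWA and the build mm9 are named in the submitters' processing notes. Depth is unknown, since read totals, like the peak caller and any duplicate removal, were not given in the sources used here. In the 1 deposited table each peak has a height in each library. The values the authors deposited are signal, since nothing states whether they are raw or scaled.

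From it, shares were computed with exact Clopper-Pearson intervals, and differences between sets of peaks with Newcombe intervals, at 95% (Python 3.11.15, SciPy 1.17.1, pandas 2.3.3). Coverage of the Newcombe intervals was tested on simulated independent counts only, which leaves out the dependence between close peaks. The log2 ratio used a pseudocount of 1. Gene symbols came from a RefSeq gene table (GRCm38.p6): 194 of the 204 peaks matched by accession and 8 by gene ID, while 2 did not match. Named genes were the 20 tallest peaks, proximal promoter and CpG context peaks, genes with 2 or more peaks, list members and the 5 highest Dam-only heights; Sox5, Il9 and the comparisons by location within simple repeat peaks were chosen after their values were seen. The set of peaks and the gene lists were chosen with earlier results of these data known. Alternatives were other height limits, 1 peak per 1 kb run, sole repeat class, a Dam-only height of 1, other comparison sets, pseudocounts, distances and windows.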

Additional observations from a re-analysis of the deposited data

How the results depend on the processing

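Differences are in percentage points, simple repeat minus the comparison set. Of 104 recalculated differences of shares, 68 kept their direction and their side of 0, 10 newly excluded 0, 8 no longer did and 18 changed sign; the causes were not tested, though smaller sets widen the intervals. With height 9 or more (97 simple repeat peaks), the intergenic (4.45), gene body (-7.10) and Dam-only (-7.94) differences no longer excluded 0, and the X chromosome (-1.96) and over 100 kb (-2.86) differences changed sign. With height 15 or more (10 simple repeat peaks), intergenic (-25.5), gene body (23.6), distal promoter (-3.91), Dam-only (5.63), X chromosome (-1.38) and close neighbor (-1.61) differences changed sign. With 1 peak per 1 kb run, the proximal promoter difference (2.49) excluded 0 and over 100 kb became -0.41. For the sole repeat class, distal promoter (3.23) and within 10 kb (6.45) excluded 0, intergenic (6.03) and Dam-only (-6.40) no longer did, and CpG context became -0.066. At a Dam-only height of 1, proximal promoter (2.57) excluded 0 and over 100 kb became -1.73. Against all other peaks, intergenic (4.69) no longer excluded 0 and proximal promoter (2.30) did. The SINE, LTR, LINE and joint promoter comparisons were added after seeing the data. Against SINE peaks, distal promoter became -1.72, and height 9 or more (-8.11) and 15 or more (-5.69) excluded 0. Against LTR peaks, intergenic (-10.5) and gene body (7.27) changed sign, proximal promoter (2.63) excluded 0 and Dam-only (-6.28) did not. Against LINE peaks these 4 were -11.2, 6.88, 3.08 and -6.36. Both promoter classes together gave 3.61, which excluded 0. Planned distances outside the gene body gave -7.93 within 10 kb, and a 200 bp window gave -0.048 for close neighbors. A window of 10 kb kept the close neighbor difference on its side of 0. The median log2 ratio differed by 0 between the sets, and its 8 recalculated differences, which have no interval, ran between -0.10 and 0.09. Shares that a setting fixes by construction, such as height 9 or more among peaks of that height, were not recalculated. Nor was the ratio of 10 or more among peaks of height 15 or more, a share that is not fixed that way. Against SINE, LTR and LINE peaks, only the location, height and Dam-only measures are counted among the 104. No paired analysis was possible because each group has 1 library.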
